A study of Rattus norvegicus with 10 samples.

Results

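Lipid uptake and lipid droplet genes that are known targets of peroxisome proliferator-activated receptors (PPARs) were examined in rat macrophages that had taken up myelin. The set held 10 genes of the 14217 named on the array: Cd36, Plin2, Angptl4, Fabp4, Fabp5, Pdk4, Ucp2, Lpl, Pnpla2 and Lipe. Its members were chosen by name, and each gene was read from all probe sets to which the array annotation gives its symbol alone. This rule found 13 probe sets, with 2 each for Plin2, Pdk4 and Lipe and 1 for each of the other 7 genes. The cells were resident peritoneal macrophages of rats of the Hsdcpb:WU strain (200 to 224 g). Mye-macrophages (n = 5) had isolated myelin (100 µg/ml) in the medium for 3 days and control macrophages (n = 5) had none. The myelin was then washed away, and both groups received IFNγ and IL-1β (100 ng/ml) for 9 hours. A resting, unstimulated group was not analysed here. The labels give no age and leave unsaid if each sample was a separate animal, so the p-values cover these samples only. In fits paired by replicate number they measure the spread of the paired differences, and in unpaired tests the spread between samples.

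PPARs are nuclear receptors that bind fatty acids and their derivatives and act on DNA together with a retinoid X receptor (RXR). In macrophages that become foam cells, lipid enters through scavenger receptors such as Cd36, is carried by fatty acid binding proteins, is stored in droplets coated by perilipins, and is released again by lipases for export or for oxidation in mitochondria. The genes of these steps are classical PPAR targets in macrophages, muscle and fat. The comparison asked whether they differed between macrophages with and without myelin.

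The promoters of the members with the largest measured differences, Cd36 and Angptl4, are shown because PPAR and RXR bind a direct repeat of a short site, and the letters of these promoters can be searched for it. RefSeq promoters of rat assembly GRCr8 were at hand for 6 of the 10 members (Ucp2, Pnpla2, Cd36, Pdk4, Plin2 and Angptl4), as 7 entries of which 2 belong to Plin2. The 250 bases before each start were searched on both strands. Capitals mark matches to TATAAA on either strand, the motif known from TATA boxes.
Cd36 promoter, chr4:18246332-18246581 (+): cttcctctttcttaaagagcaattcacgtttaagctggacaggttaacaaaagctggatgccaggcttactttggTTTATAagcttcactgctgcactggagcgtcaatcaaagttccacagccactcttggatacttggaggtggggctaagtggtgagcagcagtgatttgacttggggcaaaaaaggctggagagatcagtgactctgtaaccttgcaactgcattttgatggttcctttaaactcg
Angptl4 promoter, chr7:15258682-15258931 (-): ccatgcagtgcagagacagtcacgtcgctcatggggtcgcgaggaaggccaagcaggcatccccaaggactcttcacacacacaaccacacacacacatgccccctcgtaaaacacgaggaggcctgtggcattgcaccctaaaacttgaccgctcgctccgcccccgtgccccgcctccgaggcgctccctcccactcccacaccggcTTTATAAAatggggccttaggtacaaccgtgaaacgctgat
A direct repeat of AGGNCA with 1 base of any kind between the copies was found in 0 of the 7 member promoters and in 123 of all 33469 promoters (0.368%). The single site AGGTCA was likewise found in 0 of 7, against 14.1% of all promoters. TATAAA was found in 2 of 7, against 12.9% of all promoters. It began 175 bases before the start in Cd36, and in Angptl4 matches on the 2 strands overlapped and began 41 and 39 bases before the start. A match is a description of the letters only, and an absent match says only that these letters are not in this window.

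None of the 10 members passed the test in either direction. The levels are log2 values after RMA, the method by which the authors summarized each probe set. The groups were compared with limma, with the replicate number of the labels as a block, and adjusted p-values (Benjamini-Hochberg, threshold 0.05) were taken among the more variable 50% of all probe sets. Over those 15521 probe sets this comparison called 2.69% (123 higher, 0.792%, and 295 lower, 1.9%), and with 1 probe set per named gene it called 2.7%. Of the 13 member probe sets, 10 lay within this filter (adjusted p 0.162 to 0.925) and 0 were called. The same filter held the brightest probe set of 8 of the 10 genes, and a count of 0 among so few is near the background. At an unadjusted p under 0.05 there was 1 member probe set, that of Angptl4, against 12.1% of all tested probe sets. Without the block, limma called 0 of 15521 probe sets and 0 members (adjusted p 0.744 to 0.985), and 1 member probe set, of Pdk4, had an unadjusted p under 0.05, against 4.46% of all.

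**Figure D1:**
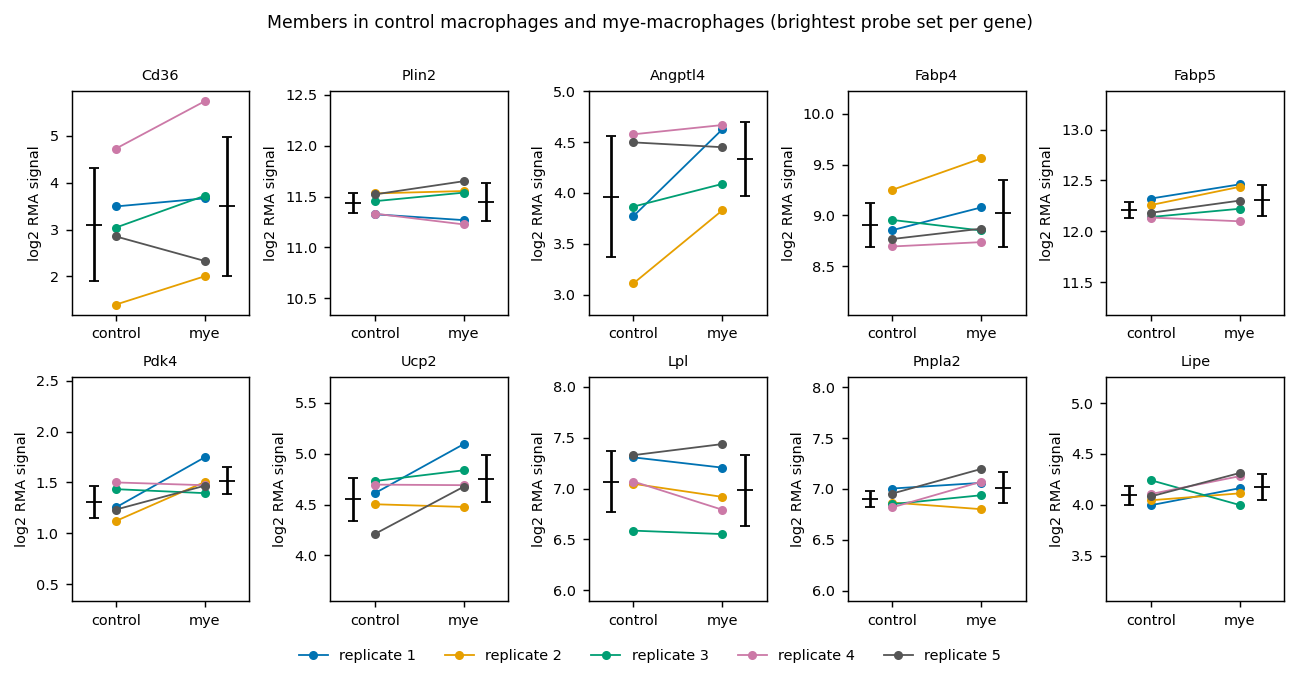
Log2 RMA signal (vertical axis) of the brightest probe set of each of the 10 members in control macrophages and mye-macrophages, with lines joining samples of the same replicate number and black bars giving mean ± SD (n = 5). The axes of 9 genes span the same width and that of Cd36 is wider. The groups overlap for every member, and for Cd36 replicate 4 is the highest and replicate 2 the lowest sample in both groups.

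Of the uptake genes, Cd36 showed the widest spread between samples of all members. Cd36 is a scavenger receptor that binds oxidized lipoproteins and long-chain fatty acids. Its log2 signal in control macrophages was 3.49, 1.40, 3.04, 4.73 and 2.85 in replicates 1 to 5. In mye-macrophages it was 3.67, 2.01, 3.72, 5.74 and 2.33. Replicate 2 of both groups lay under 2.32, the median over all probe set means, and replicate 5 of mye-macrophages just above it. The order was set by the replicate number more than by the group, with replicate 4 highest and replicate 2 lowest in both, and the groups overlapped. The replicate number held 92.7% of the variance of Cd36 and the group 2.55%. Mye-macrophages were higher in 4 of 5 pairs, with a log2 difference of 0.39 ± 0.18 (SE), or 1.31-fold, and a 95% interval of -0.02 to 0.80 (limma adjusted p = 0.269). The exact permutation test of 5 against 5 samples gave p = 0.651 and the exact sign-flip test of the 5 pairs p = 0.188, both two-sided. Leaving out 1 pair moved the difference to between 0.23 and 0.62, the highest without replicate 5 (adjusted p = 0.0874).

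A further probe set, 1386901_at, carries both the symbols Cd36l1 and Cd36 and was outside the rule. It is described here because it was the 1 probe set of several symbols that named a member, and it was chosen after its values were seen. Which of the 2 genes this probe set measures could not be settled here. Pearson's r with the Cd36 probe set over the 10 arrays was 0.939. That value cannot settle it, since another gene, Gch1, reached 0.98 with Cd36. The log2 signal of 1386901_at was 5.46, 2.60, 5.16, 7.44 and 4.70 in control macrophages and 7.12, 4.13, 5.73, 8.12 and 5.20 in mye-macrophages. All 5 pairs were higher with myelin, by 1.66, 1.53, 0.57, 0.68 and 0.50, while the groups as wholes overlapped because the samples differed more by replicate number (87.4% of the variance) than by group (10.0%). The difference was 0.99 ± 0.17 (SE) on the log2 scale, 1.98-fold, with a 95% interval of 0.60 to 1.38 (limma with the replicate block, adjusted p = 0.0261). The call was lost without the block (adjusted p = 0.915), and the exact test of 5 against 5 gave p = 0.397. The sign-flip test gave p = 0.0625, the smallest that 5 pairs allow in this exact test. Without the pair of replicate 1, 2, 4 or 5 the adjusted p was 0.0877, 0.0887, 0.0609 and 0.0611, with log2 differences of 0.82, 0.85, 1.07 and 1.11.

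The order of the Cd36 samples, with replicate 4 highest and replicate 2 lowest in both groups, was shared by 5 of 8 macrophage markers (Cd68, Itgam, Cd14, Tyrobp and Fcgr1a) and by 4.31% of all tested probe sets. It was also that of Pf4 alone among 4 platelet markers measured, of Cpa3 alone among 6 of granulocytes and mast cells, and of Cfd, Tek, Tie1 and Cd79b. Tpsab1, also of mast cells, missed it narrowly, since in mye-macrophages replicate 3 (1.696) lay just below replicate 2 (1.700). Pf4, which platelets and macrophages make, stood at 9.84, 8.39, 11.15, 11.78 and 10.91 in control macrophages and at 10.56, 8.59, 11.41, 11.96 and 11.07 in mye-macrophages. Cpa3, a carboxypeptidase of mast cells, stood at 4.70, 3.19, 4.27, 7.92 and 5.26 and at 6.30, 2.83, 4.12, 7.99 and 4.72. Pf4 was higher in 5 of 5 pairs, by 0.30 ± 0.09 (SE), and Cpa3 in 2 of 5, and neither passed the test between groups (limma adjusted p = 0.115 for Pf4 and 0.819 for Cpa3). Of the platelet list 4 of 6 genes were measured and 0 called. Their summed signal on the linear scale was 348 to 3535 in control macrophages and 398 to 3988 in mye-macrophages. Nearly all of it was that of Pf4 (mean log2 signal 10.57), as Itga2b (2.87), Gp9 (1.60) and Ppbp (1.48) were far lower. Of the granulocyte and mast cell list 6 of 7 were measured and 0 called, with a summed signal of 20.7 to 265 and 21.7 to 284. Cpa3 was the brightest of these (mean log2 signal 5.13), and the others had means from 1.22 (S100a9) to 2.26 (Tpsab1). The part of any cell type in the spread of Cd36 was not tested. In such bulk samples, fewer cells of a type and less RNA per cell cannot be told apart.

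**Figure D2:**
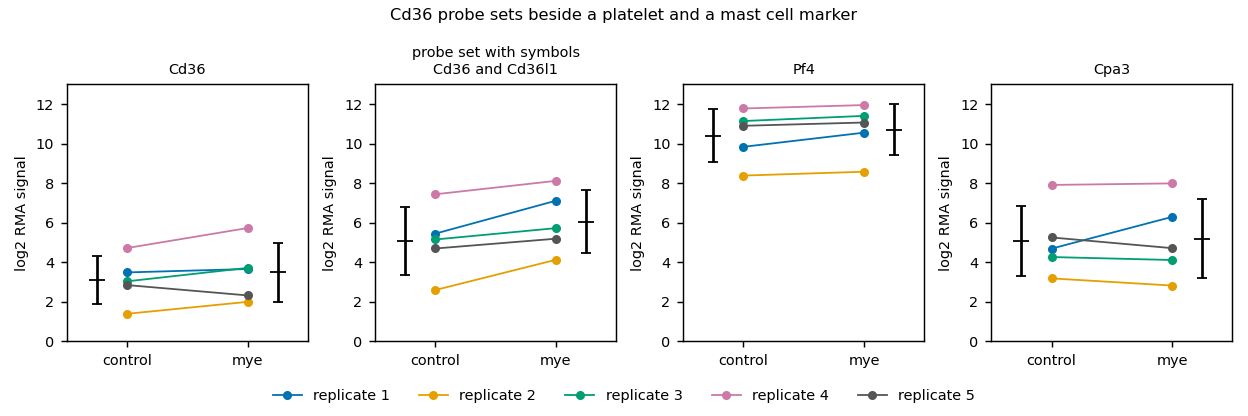
Log2 RMA signal (vertical axis, 0 to 13 in each panel) of the Cd36 probe set, the probe set with both symbols, Pf4 and Cpa3 in control macrophages and mye-macrophages, with lines joining samples of the same replicate number and black bars giving mean ± SD (n = 5). Replicate 4 is the highest and replicate 2 the lowest in each panel and group, and all 5 lines slope upward in the panels of the probe set with both symbols and Pf4.

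Fabp4 and Fabp5, the cytosolic carriers of fatty acids in macrophages, differed by little. Fabp4 stood at 8.86, 9.25, 8.96, 8.70 and 8.77 in control macrophages and at 9.08, 9.56, 8.85, 8.74 and 8.87 in mye-macrophages. The groups overlapped, with 4 of 5 pairs higher and a log2 difference of 0.11 ± 0.08 (SE, 95% interval -0.06 to 0.29, limma adjusted p = 0.444). Fabp5 stood at 12.32, 12.26, 12.14, 12.14 and 12.18 against 12.46, 12.44, 12.22, 12.10 and 12.30. It varied so little that it was outside the variance filter, and its log2 difference was 0.10 ± 0.07 (SE, 95% interval -0.05 to 0.25), again with 4 of 5 pairs higher.

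Plin2, the perilipin that coats the droplets of foam cells and a widely used mark of lipid loading, was the member with the smallest difference. On its brighter probe set (1390383_at) it stood at 11.33, 11.53, 11.46, 11.33 and 11.52 in control macrophages and at 11.27, 11.55, 11.54, 11.23 and 11.65 in mye-macrophages. The values crossed freely, with 3 of 5 pairs higher. The log2 difference was 0.01 ± 0.07 (SE) with a 95% interval of -0.14 to 0.17 (limma adjusted p = 0.925). The second probe set (1382680_at) gave 10.31 ± 0.26 and 10.35 ± 0.31 (SD, n = 5), a difference of 0.04 ± 0.07 (SE, 95% interval -0.10 to 0.19, adjusted p = 0.746). Both intervals end below a 1.5-fold change in either direction. The sign of the first probe set's difference turned when the arrays were quantile normalized once more (-0.01).

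Angptl4 and Lpl belong to 1 step, since Angptl4 is a secreted inhibitor of lipoprotein lipase, the enzyme Lpl encodes, which frees fatty acids from lipoproteins. Angptl4 stood at 3.77, 3.11, 3.87, 4.58 and 4.50 in control macrophages and at 4.63, 3.83, 4.09, 4.67 and 4.45 in mye-macrophages. The pairs of replicates 1 and 2 differed by 0.85 and 0.72, those of replicates 3 and 4 by 0.22 and 0.09, and that of replicate 5 by -0.05, so the size of the difference was uneven among pairs. Its mean log2 difference was 0.37 ± 0.13 (SE), or 1.29-fold, with a 95% interval of 0.07 to 0.66, an unadjusted p of 0.0191 and an adjusted p of 0.162 in limma. Without the block its unadjusted limma p was 0.195, and the exact test of 5 against 5 gave 0.23. Lpl stood at 7.31, 7.05, 6.59, 7.07 and 7.33 against 7.21, 6.92, 6.55, 6.79 and 7.44. Lpl was the member with a negative difference, -0.09 ± 0.07 (SE, 95% interval -0.25 to 0.08, adjusted p = 0.552), and 1 of 5 pairs was higher. The difference of Angptl4 from Lpl was not tested.

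The lipases of the droplet itself are Pnpla2 (adipose triglyceride lipase), which takes the first fatty acid from a triglyceride, and Lipe (hormone-sensitive lipase), which acts next and also splits cholesteryl esters. Pnpla2 stood at 7.00, 6.87, 6.85, 6.82 and 6.95 in control macrophages and at 7.06, 6.80, 6.94, 7.07 and 7.20 in mye-macrophages. It was higher in 4 of 5 pairs, by 0.11 ± 0.07 on the log2 scale (SE, 95% interval -0.05 to 0.28, limma adjusted p = 0.415). Lipe stood at 4.00, 4.05, 4.24, 4.11 and 4.08 against 4.16, 4.11, 4.00, 4.28 and 4.31 on its brighter probe set. That probe set was outside the variance filter and differed by 0.08 ± 0.08 (SE). The other Lipe probe set gave 2.96 ± 0.14 and 3.18 ± 0.23 (SD, n = 5) and a difference of 0.22 ± 0.11 (SE, adjusted p = 0.300), and both were higher in 4 of 5 pairs. For both lipases the groups overlapped.

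The members of mitochondrial fuel use were Pdk4, a kinase that shuts off pyruvate dehydrogenase and so favours fatty acid oxidation, and Ucp2, a carrier of the inner mitochondrial membrane. Pdk4 was dim on both probe sets, with means under 2.32, the median over all tested probe sets. On the brighter one it stood at 1.26, 1.12, 1.43, 1.50 and 1.23 in control macrophages and at 1.75, 1.51, 1.39, 1.47 and 1.47 in mye-macrophages. The groups overlapped, and the log2 difference of 0.21 ± 0.09 (SE) had an adjusted p of 0.247 with 3 of 5 pairs higher. The other Pdk4 probe set gave 0.58 ± 0.12 and 0.69 ± 0.15 (SD, n = 5). Ucp2 stood at 4.61, 4.50, 4.73, 4.70 and 4.21 against 5.09, 4.48, 4.84, 4.69 and 4.68. The groups overlapped, and the difference of 0.20 ± 0.10 (SE, 95% interval -0.01 to 0.42, adjusted p = 0.269) came mostly from the pairs of replicates 1 and 5, with 3 of 5 pairs higher.

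**Figure D3:**
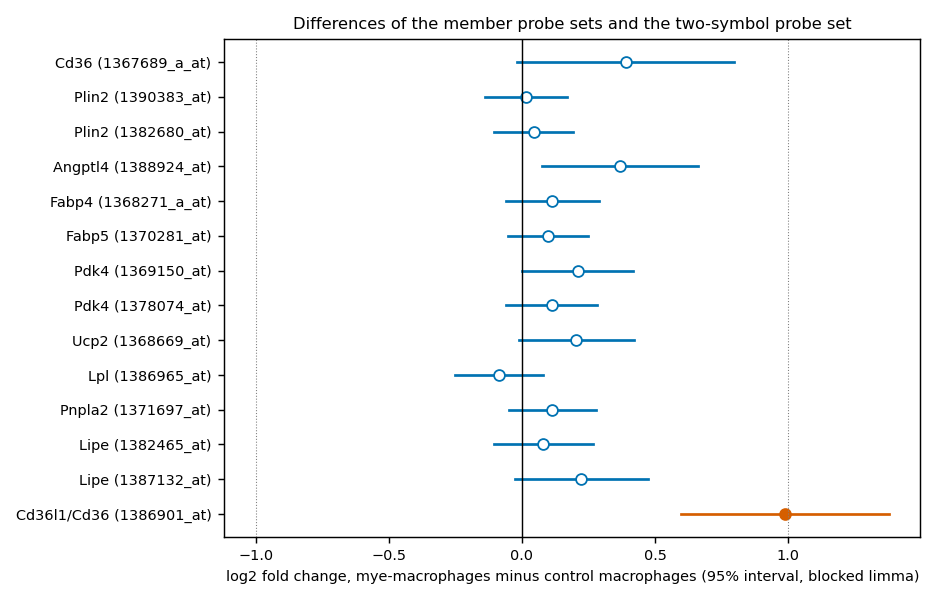
Log2 fold change of mye-macrophages over control macrophages (horizontal axis) with its 95% interval from limma with the replicate block, for the 13 member probe sets (blue) and the probe set with both symbols Cd36l1 and Cd36 (orange). Filled points have an adjusted p under 0.05 and dotted lines mark a 2-fold change. All 13 member intervals end below 2-fold, and the orange probe set alone is filled, at 0.99.

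The member differences were small and mostly of one sign. On the brightest probe sets 9 of 10 members had a difference above 0, against 51.9% of all named genes, and their median was 0.11 on the log2 scale, against 0.01 over all named genes. This is a description, since the members share the same arrays and none passed the test. By pair, 8, 7, 6, 5 and 8 of the 10 members were higher in mye-macrophages in replicates 1 to 5. The median paired log2 differences of the members were 0.17, 0.12, 0.08, 0.02 and 0.12. The pair of replicate 4 had the smallest of these medians. Of the 13 probe sets, 8 were higher in 4 of 5 pairs, 4 in 3 and 1 in 1, and 0 were higher in all 5, against 6.16% of all tested probe sets. In no member did the groups stand apart, which 0.734% of all tested probe sets did. The upper 95% bounds stayed under a 2-fold change for all 13 probe sets and under 1.5-fold for 11, with Cd36 and Angptl4 as the exceptions. Without the block the bound of Cd36 was 1.95 on the log2 scale, and with an RNA integrity measure (the beta-actin gap) as a covariate it was 1.07, both beyond 2-fold, while the other 12 probe sets stayed under it. Leaving out 1 pair moved the difference of Lpl to between -0.14 and -0.04, that of Fabp4 to between 0.07 and 0.17, that of Lipe on its brighter probe set to between 0.04 and 0.16 and on the other to between 0.14 and 0.32. It moved Pdk4 to between 0.14 and 0.27 on the brighter probe set, Ucp2 to between 0.13 and 0.26 and Angptl4 to between 0.25 and 0.47.

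The replicate number held between 19.4% and 93.2% of the variance on the brightest probe set of a member, and 97.3% on the second probe set of Plin2. Its median share over the 10 brightest probe sets was 72.7%, against 65.5% over all named genes. The share was highest for Lpl (93.2%), Cd36 (92.7%), Plin2 (89.3%) and Fabp4 (87.0%) and low for Pdk4 (19.4%) and Lipe (24.0%). Across the 10 arrays Pearson's r between members ran from -0.781 for Plin2 with Cd36 to 0.723 for Ucp2 with Pdk4. Angptl4 with Cd36 gave 0.679, Fabp4 with Fabp5 0.690 and Fabp4 with Cd36 -0.678. These values are a description, because the arrays share replicate numbers and the 2 groups. By the same measure the genes most like Cd36 over the 10 arrays were Gch1 and Rrbp1 (both 0.98), those most like Angptl4 were Pcnp (0.96) and Camta2 (0.95), and those most like Plin2 were Timm8a1 (0.94) and Fnip2 (0.93). Fabp4 was most like LOC100912002 (0.97), Fabp5 like Orc3 (0.96), Lpl like Ska2 (0.97), Ucp2 like Lix1l (0.90), Lipe like Ly6g6e (0.90) and Pnpla2 like Sdhaf4 (0.88).

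Other genes of the same pathways were read from 5 lists of 98 genes, of which 90 were measured. Only 46 of the 90 lay within the variance filter and could be called. In limma with the replicate block 1 of these rose (Scarb2) and 1 fell (Cidea), near the 2.7% called among all named genes, and 45 of 90 had a log2 difference above 0, with a median of 0.00. Without the block 0 passed. Of the PPARs, RXRs and their partners 14 of 15 were measured, 5 lay within the filter and 0 passed, with a median of -0.03. Pparg, the receptor best known in foam cells, was dim (1.12 ± 0.12 and 1.24 ± 0.19, SD, n = 5), while Ppard stood at 4.68 ± 0.26 and 4.65 ± 0.26, above the median of all probe sets. The coactivator Ppargc1b differed by 0.25 (adjusted p = 0.193), Ncoa3 by -0.20 (adjusted p = 0.220), Ncoa2 by -0.20 and Med1 by -0.18, the last 2 outside the variance filter. For Ncoa2 the groups did not overlap (exact permutation p = 0.00794, the smallest that 5 against 5 samples allow), as for 0.734% of all tested probe sets. Adjusted over all tested probe sets, its p in limma with the block was 0.290. The brightest probe set stands for a gene here, and another probe set of Med1 was lower by a log2 difference of -0.68 (limma with the block, adjusted p = 0.0103). That call was lost without the block, where 0 of 15521 probe sets were called. A further, dim Med1 probe set (mean 1.53) differed by 0.07 (limma with the block, adjusted p = 0.792).

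Of the genes of lipid uptake and fatty acid binding 23 of 26 were measured and 14 lay within the filter, with 1 higher, 0 lower and a median difference of 0.00. Scarb2, a lysosomal membrane protein of the Cd36 family, rose from 7.52, 7.18, 6.99, 7.22 and 6.88 to 7.81, 7.80, 7.41, 7.63 and 7.25. All 5 pairs were higher, by a log2 difference of 0.42 ± 0.07 (SE, adjusted p = 0.0232), although the groups overlapped. The call was lost without the block (adjusted p = 0.581) and without the pair of replicate 1, 2, 4 or 5 (adjusted p = 0.0617, 0.0697, 0.0765 and 0.0762). The fatty acid transporter Slc27a1 differed by 0.31 (adjusted p = 0.100), the acyl-CoA synthetase Acsl5 by 0.18 (adjusted p = 0.169) and the lipoprotein receptor Scarb1 by -0.09. Of the regulators of lipoprotein lipase and related lipases 9 of 11 were measured, 3 lay within the filter and 0 passed, with a median of 0.03. In that list Lmf1, which helps lipases to fold, differed by -0.10 and the lysosomal acid lipase Lipa by -0.04.

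Of the genes of the droplet coat, storage and lipolysis all 25 were measured and 13 lay within the filter, with 0 higher, 1 lower and a median of 0.00. Cidea, a droplet protein of fat cells, fell from 5.96, 5.77, 5.45, 4.80 and 5.32 to 5.57, 5.45, 5.15, 4.28 and 5.17. All 5 pairs were lower, by a log2 difference of -0.34 ± 0.07 (SE, adjusted p = 0.0473), and the groups overlapped. Its call was lost without the block (adjusted p = 0.908) and without any 1 of the 5 pairs (adjusted p 0.0586 to 0.146). Hilpda, a droplet protein that inhibits Pnpla2, differed by 0.44 (adjusted p = 0.0736) with 5 of 5 pairs higher, the phosphatidate phosphatase Lpin2 by 0.26 (adjusted p = 0.187) and Fitm2, which helps droplets to bud, by -0.26. Of the genes of the pyruvate dehydrogenase switch and mitochondrial fatty acid oxidation 19 of 21 were measured, 11 lay within the filter and 0 passed, with a median of 0.04. Pdk1, a kinase of the same family as Pdk4, differed by 0.42 on its brightest probe set (adjusted p = 0.108) and by 0.41 on another (adjusted p = 0.103). Acaa2, the thiolase of the last step of mitochondrial oxidation, differed by 0.25 (adjusted p = 0.0858), Pdk3 by 0.18 and the phosphatase Pdp2 by -0.20.

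**Figure D4:**
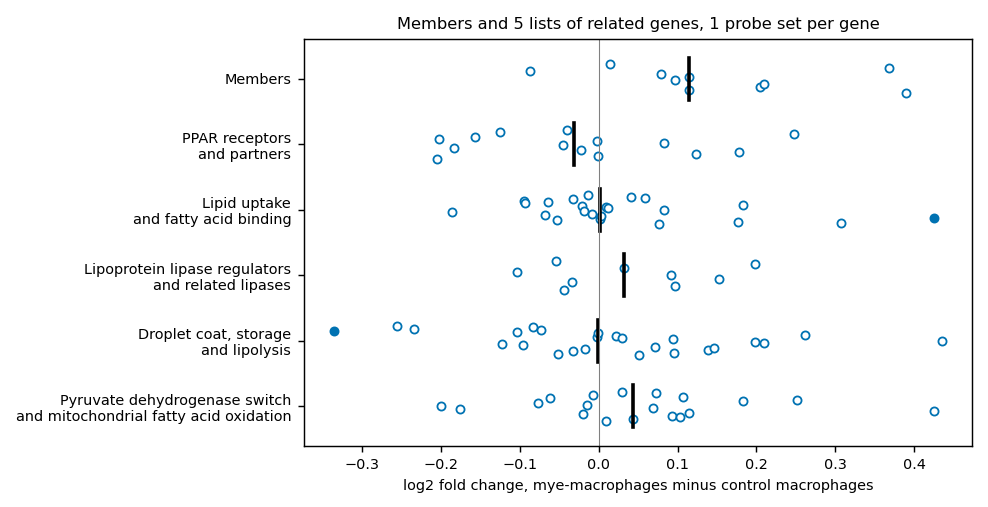
Log2 fold change of mye-macrophages over control macrophages (horizontal axis), 1 point per gene on its brightest probe set, for the 10 members and 5 lists of related genes; vertical bars are medians and filled points have an adjusted p under 0.05 in limma with the replicate block. The median of the members is 0.11 and those of the lists lie between -0.03 and 0.04, and the filled points are Scarb2 (0.42) and Cidea (-0.34).

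All 8 macrophage markers were measured above the median of all probe sets. This bar cannot identify the cell type, since 6 of the 7 measured oligodendrocyte markers also lay above it. The macrophage markers had the highest summed linear signal of the marker lists. It was 9147.14 to 12640.9 in control macrophages and 9950.99 to 13272.5 in mye-macrophages. The labelled cell type itself was not tested. Of the 8 macrophage markers, 5 lay within the variance filter and 0 were called. Fat cells express many of the members too, so their markers were read beside them. Of 7 adipocyte markers 6 were measured, the defining ones were dim (mean log2 signals of Adipoq 1.16, Lep 1.16, Plin1 0.71 and Cidec 0.94), and those 4 had a summed linear signal of 7.42 to 8.15 in control macrophages and 7.59 to 9.11 in mye-macrophages. All 6 together, with the brighter Cfd and Cidea, summed to 62.9 to 76.8 and 57.3 to 68.5. Cfd was higher by 0.52 (limma adjusted p = 0.0216) and Cidea lower as above. The Cfd call was lost without the block (adjusted p = 0.936) and without the pair of replicate 1, 2, 4 or 5 (adjusted p = 0.0663, 0.0643, 0.0609 and 0.0633). Of the endothelial markers 6 of 7 were measured and 0 passed, with summed signals of 44.9 to 64.7 and 54.3 to 64.5. Of 8 oligodendrocyte markers 7 were measured, with summed signals of 168 to 209 and 212 to 276. Mbp on its brightest probe set was outside the variance filter and differed by -0.20 ± 0.11 (SE), while the study lists another Mbp probe set as upregulated. Mobp rose by 3.60 and Bcas1 by 1.76 on the log2 scale, each in 5 of 5 pairs and without overlap of the groups (adjusted p = 0.00193 and 0.00333 with the block, 0.208 and 0.469 without it). For mesothelium (5 of 6 measured) and T and B cells (5 of 7) 0 passed. RNA integrity was read from beta-actin, whose 3′ minus 5′ control signal was 3.02 ± 0.30 in control macrophages and 3.30 ± 0.32 in mye-macrophages (SD, n = 5, two-sided exact permutation p = 0.190). This gap was larger with myelin by 0.82, 0.45, -0.21, 0.00 and 0.29 in the 5 pairs (exact sign-flip p = 0.188). The same gap of Gapdh was 0.40 ± 0.14 and 0.42 ± 0.13 (exact permutation p = 0.770). The beta-actin gap was entered as a covariate, an alternative chosen after seeing the data, and with it the median difference of the 10 members went from 0.11 to 0.06, with 9 of 10 above 0 as before. Angptl4 then differed by 0.17, Ucp2 by 0.11, Pdk4 by 0.05, Fabp4 by 0.02 and Lipe by 0.0033, while Cd36 differed by 0.56 and Pnpla2 by 0.15. The probe set of both Cd36 symbols differed by 0.67 (adjusted p = 0.146).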

How the data were processed

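Data of an Affymetrix rat genome array were used, with 5 arrays in each group. Raw intensities were pre-processed by the authors with RMA (affy package; version not given in the sources used here), and the deposited log2 values per probe set were taken as they stand. They ran from -0.04 to 13.09 with array medians of 2.30 to 2.35. Of 31099 probe sets 57 Affymetrix controls were left out, and 31042 were tested. The annotation gave 1 symbol to 20826, several to 436 and none to 9780.

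Differences were fitted in R 4.3.3 with the limma package (3.58.1), with lmFit and eBayes over all tested probe sets. Benjamini-Hochberg adjustment covered the 15521 probe sets whose interquartile range was above the median. The study's methods name an unpaired test, which was run as an alternative. The replicate number of the labels was the block here, since the comparison was set up as paired by that number. As a check, same-numbered samples deviated together from their group means (correlations 0.404 to 0.791, at most 0.279 across numbers, threshold 0.1), and all 10 samples correlated best with their own number. The labels do not say what the number stands for. Exact tests, motif searches and figures were made in Python 3.11.15 with SciPy 1.17.1 and pandas 2.3.3. The fits were tested on simulated data. The number of arrays limits the precision.

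Members, lists and tests were chosen with earlier results of these data known. All member probe sets were named. From each list every gene called on its brightest probe set was named, plus up to 4 of the largest differences among genes above the median signal, and for each member above that median up to 2 genes of the most similar pattern. Gene names are those of the array annotation, and the array's genome build is not given in the sources used here.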

Additional observations from a re-analysis of the deposited data

How the results depend on the processing

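Over 16 alternative settings no member gene was called in either direction, and the lowest adjusted p of a member probe set was 0.0874 (Cd36 without replicate 5). Of 208 recomputed member differences 205 kept their direction without a call and 3 reversed, all of Plin2 on its brighter probe set: -0.0078 with quantile normalization once more, and -0.014 to 0.045 when leaving out each pair. Part of the 205 had no adjusted p, because the probe set was outside the filter of that setting and could not be called. This held in most settings for Fabp5, the dimmer Pdk4 probe set and the brighter Lipe probe set. Leaving out a pair equals leaving out either of its samples in the blocked fit. The probe set of both Cd36 symbols lost its call in 10 of 16 settings (adjusted p 0.0179 to 0.996). Scarb2, Cidea and Cfd kept their call in 17 of 48 values and lost it in 31. Of 256 values of the 16 named genes that were not called, 250 gained no call, 5 gained a call and 1 reversed (Lipa, 0.0029 with beta-actin's gap as covariate, a setting chosen after seeing the data). Part of the 250 likewise lay outside the filter and could not be called, as for Ncoa2 in most settings. All counts of calls here use an adjusted p under 0.05, also for the t-test that the study's methods name without a cutoff. The counts of all probe sets called higher and lower (123 and 295) were 0 and 0 with no replicate block, in the methods' t-test run probe set by probe set and in a paired test, 4 and 7 with the number as a random block, 39 and 89 with no variance filter, 387 and 654 with trend and robust variance, 6 and 10 with the beta-actin covariate, and 11 to 141 and 20 to 531 without each replicate. The pathway genes called higher (1) were 0 with no replicate block, a random block, either of those tests or the beta-actin covariate, 6 with trend and robust variance, 2 with the probe set of largest interquartile range, and 0 to 1 without each replicate. Those called lower (1) were 0 with no replicate block, a random block, no variance filter, a filter on low values, quantile normalization once more, either of those tests, the beta-actin covariate or without each replicate (0 to 0), and 2 with the probe set of largest interquartile range. The cause was not tested. Dim genes such as Pdk4 and Pparg lie where a difference is hard to measure.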
